A study of Mus musculus with 6 samples.

Results

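Collagen genes code for the alpha chains of the collagens, the main structural proteins of the extracellular matrix. Genes of the deposited count table were taken as members when their mouse symbol had the form of a collagen chain, Col, a number, a and a number. This gave 44 genes of 37620 in the table, and 34 of the 44 were expressed, with 10 or more counts in at least 3 of the 6 libraries. By structure, 11 were fibrillar collagens (9 expressed), 6 were chains of type IV collagen, the collagen of basement membranes (6 expressed), and 27 belonged to other types (19 expressed).

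The libraries were made from polyadenylated RNA of the heart apex of wild-type C57/BL6J mice, all after 30 min of myocardial ischaemia and 120 min of reperfusion. In the dexmedetomidine group (3 samples), the vehicle of yohimbine, an alpha-2 adrenergic antagonist, was given 30 min before dexmedetomidine at 10 µg/kg, an alpha-2 agonist used as a sedative, and surgery followed 20 min after the drug. The vehicle group (3 samples) received the vehicles of both drugs separately before the same surgery, and the labels give no timing for these. Each infusion went slowly into the tail vein within 10 min. The labels give no age or sex, do not say whether each sample came from a separate mouse, and describe no sham or healthy heart, so levels are those of reperfused tissue only.

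In a collagen molecule, alpha chains wind around each other, either copies of 1 chain or products of several genes. Fibrillar collagens such as types I, III and V form the cross-banded fibres that give tissue its tensile strength, and in the heart they are made mainly by fibroblasts. Type IV collagen forms the sheet-like network of the basement membrane that surrounds cardiomyocytes and lies under the endothelium of capillaries. Other types link to fibrils (the FACIT collagens), form beaded microfilaments (type VI), carry releasable antiangiogenic fragments (types XV and XVIII) or span the cell membrane. After infarction, collagen is known to be deposited over days, a far later stage than the one sampled here.

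Libraries held 42.7 to 48.6 M gene counts after dexmedetomidine and 50.3 to 56.6 M after vehicle, and mitochondrially encoded genes took 27.1% to 38.2% of them after dexmedetomidine and 22.01% to 25.2% after vehicle. Libraries were scaled by TMM, which sets them level over the bulk of genes. No gene in the whole table passed an adjusted p of 0.05 in edgeR's quasi-likelihood test (the smallest was 0.101), while 3172 of 14738 tested genes had an unadjusted p under 0.05. Fold changes across all genes followed GC content (Spearman rho -0.63 over 14329 genes, which are not independent replicates). The 10 cardiomyocyte markers examined were all detected, with summed levels of 32241 to 37901 CPM after dexmedetomidine and 40884 to 47309 CPM after vehicle.

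Sequences around the starts of 4 genes are printed for description only. Col4a1 and Col4a2, the most abundant pair, start 21 bases apart on opposite strands. Col3a1 and Col1a2 were picked by their values in these data. The libraries of the groups did not overlap for Col3a1, while Col1a2 had a fold change near 0. No link between sequence and fold change was tested. The windows run from 250 bases before to 50 bases after the annotated start, in RefSeq's table on build GRCm38.p6, which is not the build of the counts (mm9). Capitals mark 3 motifs searched on both strands, which share no bases in these windows: TATAAA (the TATA box), CCAAT (the CCAAT box) and GGGCGG (the GC box). The reverse complements TTTATA for the TATA box, ATTGG for the CCAAT box and CCGCCC for the GC box are therefore in capitals too.
Col4a1: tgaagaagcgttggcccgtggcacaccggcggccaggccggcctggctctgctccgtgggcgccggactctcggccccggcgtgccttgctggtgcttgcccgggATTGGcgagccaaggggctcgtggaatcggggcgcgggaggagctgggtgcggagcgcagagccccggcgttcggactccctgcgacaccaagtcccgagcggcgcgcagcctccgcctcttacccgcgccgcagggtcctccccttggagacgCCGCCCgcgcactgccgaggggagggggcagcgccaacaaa
Col4a2: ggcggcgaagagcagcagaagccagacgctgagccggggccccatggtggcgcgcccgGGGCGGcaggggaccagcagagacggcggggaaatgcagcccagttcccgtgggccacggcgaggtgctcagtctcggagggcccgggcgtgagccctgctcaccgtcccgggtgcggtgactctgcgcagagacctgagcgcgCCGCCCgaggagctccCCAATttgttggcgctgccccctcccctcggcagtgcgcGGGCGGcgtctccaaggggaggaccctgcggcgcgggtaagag
Col3a1: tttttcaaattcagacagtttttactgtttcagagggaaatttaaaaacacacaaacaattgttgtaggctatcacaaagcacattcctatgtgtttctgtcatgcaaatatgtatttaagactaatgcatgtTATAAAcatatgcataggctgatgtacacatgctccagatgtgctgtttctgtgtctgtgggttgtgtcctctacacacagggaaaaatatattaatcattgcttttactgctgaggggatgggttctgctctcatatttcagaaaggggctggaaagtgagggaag
Col1a2: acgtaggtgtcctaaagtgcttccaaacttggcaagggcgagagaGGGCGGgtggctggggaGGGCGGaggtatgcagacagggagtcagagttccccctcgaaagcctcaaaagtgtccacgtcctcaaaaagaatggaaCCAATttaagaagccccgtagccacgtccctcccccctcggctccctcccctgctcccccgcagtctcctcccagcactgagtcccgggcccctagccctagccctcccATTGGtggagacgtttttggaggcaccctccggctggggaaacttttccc

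The Col4a1 window (chr8:11312777-11313076, minus strand) and the Col4a2 window (chr8:11312555-11312854, plus strand) shared 78 bases, and their annotated starts lay 21 bases apart on opposite strands. The annotated genes overlap there, so the bases before each start lie within the other gene. A CCAAT began 32 bases before the Col4a2 start, and one on the other strand began 145 bases before the Col4a1 start. The Col3a1 window (chr1:45311288-45311587, plus strand) held a TATAAA that began 117 bases before the start and neither of the other motifs. The Col1a2 window (chr6:4505368-4505667, plus strand) held 2 copies of GGGCGG, which began 205 and 188 bases before the start, and a CCAAT that began 109 bases before it, with another on the other strand at the start itself. GC content was 37.67% in the Col3a1 window, against 61.0% for Col1a2, 74.0% for Col4a1 and 73.67% for Col4a2. A window was found for 27 of the 34 expressed collagen genes (29 windows, as some genes have several starts). Of these windows, 20 held GGGCGG (69.0%, against 35.7% of 32851 windows of the same length in the table), 10 held CCAAT (34.5%, against 37.4%) and 3 held TATAAA (10.3%, against 13.6%). The 32851 windows were not limited to expressed genes, so these shares do not compare like with like. These matches describe letters only.

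Levels are given as RPKM, counts scaled by the deposited gene length and by the TMM library size, so that genes can be compared. Type IV collagen held the highest levels. Col4a1 measured 131, 98.7 and 111 RPKM in the dexmedetomidine libraries, against 117, 142 and 104 RPKM in the vehicle libraries. Its partner Col4a2, whose chain assembles with that of Col4a1 in the same molecule, measured 82.5, 58.2 and 59.9 RPKM after dexmedetomidine, against 69.6, 89.3 and 63.0 RPKM after vehicle. The groups overlapped for both genes, with dexmedetomidine replicate 1 and vehicle replicate 2 the highest of their groups. Together these genes made up 63.2% of the summed RPKM of all 44 collagen genes, or 57.2% when the length of the longest GENCODE M21 transcript replaced the deposited length, and the 12 most abundant genes made up 94.2%.

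**Figure D1:**
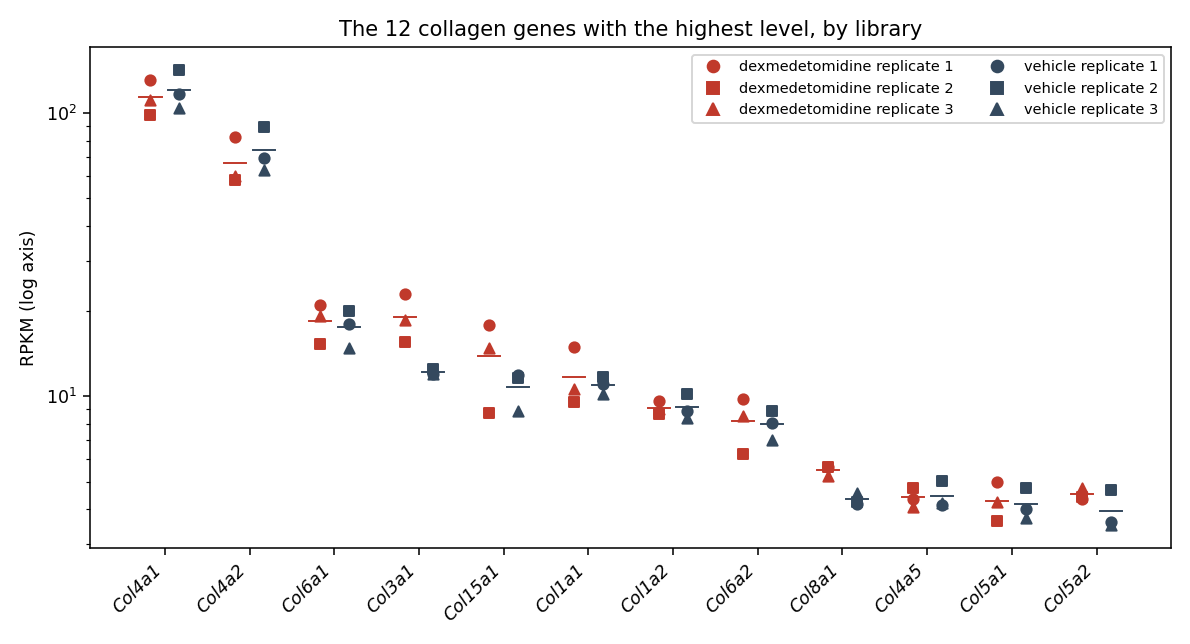
RPKM (log axis) of the 12 collagen genes with the highest mean level, in order of level, with 1 symbol per library and a line at each group's mean (n = 3). The groups overlap for 10 of these genes, while the dexmedetomidine libraries lie above the vehicle libraries for Col3a1 and Col8a1.

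After type IV the order of mean level was Col6a1 (18.1 RPKM over all 6 libraries), Col3a1 (15.6), Col15a1 (12.3), Col1a1 (11.3), Col1a2 (9.13), Col6a2 (8.09), Col8a1 (4.92), Col4a5 (4.43), Col5a1 (4.22) and Col5a2 (4.22). Neighbours in this order from Col6a1 to Col6a2, and again from Col8a1 to Col5a2, lay within the spread over libraries of each other. The order depends on the length used: the deposited length of Col1a2 was 12145 bases, against 5348 for its longest GENCODE M21 transcript, and with the transcript's length Col1a2 averaged 20.7 RPKM and Col3a1 23.6, both above Col6a1 at 19.3. The authors' definition of length is not given in the sources used.

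The other 10 genes of the family did not reach the expression minimum, namely Col2a1, Col6a4, Col6a5, Col9a1, Col9a2, Col10a1, Col17a1, Col19a1, Col24a1 and Col26a1. Col10a1, a collagen of growth-plate cartilage, was 0 in each library, and Col2a1, the main collagen of cartilage, had 6 counts, all in vehicle replicate 3. Just outside the minimum stood Col26a1, with 28, 6 and 1 counts after dexmedetomidine and 8, 2 and 3 after vehicle, and Col17a1, a chain of epithelial hemidesmosomes, with 9, 4 and 4 counts after dexmedetomidine and 10, 7 and 10 after vehicle. Just inside it stood Col11a1, a minor fibril chain best known from cartilage, with 2, 11 and 11 counts after dexmedetomidine and 0, 0 and 15 after vehicle. The same 34 genes passed the filter of edgeR, and 9 of the 10 others had at least 1 count.

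The design asks which transcripts differ after reperfusion between dexmedetomidine and its vehicle. Col3a1 was 1.57-fold higher after dexmedetomidine, Col4a3 was 1.70-fold higher, Col8a1 was 1.27-fold higher, and Col22a1 was 2.84-fold lower. None of the 34 expressed collagen genes passed an adjusted p of 0.05 in edgeR, and 0% of all tested genes did. These 4 had an unadjusted p under 0.05 (3 higher, 1 lower), beside 21.5% of all tested genes (12.5% higher, 9.03% lower). In DESeq2, 2 of the 33 members with an adjusted p passed (Col3a1 and Col4a3, both higher), beside 8.54% of all genes and 6% in the higher direction. In limma-voom with quality weights 3 of 34 passed (Col3a1, Col4a3 and Col8a1, all higher), beside 14% of all genes and 8.79% in the higher direction. In edgeR without vehicle replicate 3, 2 passed (Col3a1 and Col4a3, beside 8.31% of all genes, 6.13% higher), with no filter 1 (Col3a1, beside 1.88%, 1.35% higher), and with replicate number as a block 0 (beside 4.32%, 3.86% higher).

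The median log2 fold change of the 34 genes was 0.08, beside 0.0032 over all 14738 tested genes, and 22 of 34 were above 0, beside 50.3% of all genes. With 1 library left out, the median ran from -0.0098 to 0.18 and the number above 0 from 16 to 27. Both were lowest without dexmedetomidine replicate 1 (16 of 34, beside 49.7% of all genes). The number was 24 and 21 without dexmedetomidine replicates 2 and 3, and 22, 27 and 18 without vehicle replicates 1, 2 and 3. It was 19 in limma-voom and 26 once GC content and length were corrected for. The lean to higher values thus changed with the library left out and with the processing. The 3 libraries of one group all lay above those of the other for 6 of 34 members, 4 higher and 2 lower after dexmedetomidine, beside 27.6% of all genes (15.6% higher, 12% lower). Summed over the 44 genes, collagen RPKM was 350.1, 253 and 289.6 after dexmedetomidine, against 288, 342 and 259.7 after vehicle, so the groups overlapped widely (298 ± 48.9 and 297 ± 41.9, SD, n = 3 each). As a share of all gene counts this was 0.201% ± 0.0508 after dexmedetomidine and 0.216% ± 0.0167 after vehicle, and without mitochondrially encoded genes in the total 0.303% ± 0.0492 and 0.282% ± 0.0178. In tissue of mixed cells a lower or higher level cannot be told apart from fewer or more cells that make the transcript. Dexmedetomidine replicate 1 held the highest value for 10 of the 34 genes and vehicle replicate 2 for another 10, while dexmedetomidine replicate 2 held the lowest for 12.

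**Figure D2:**
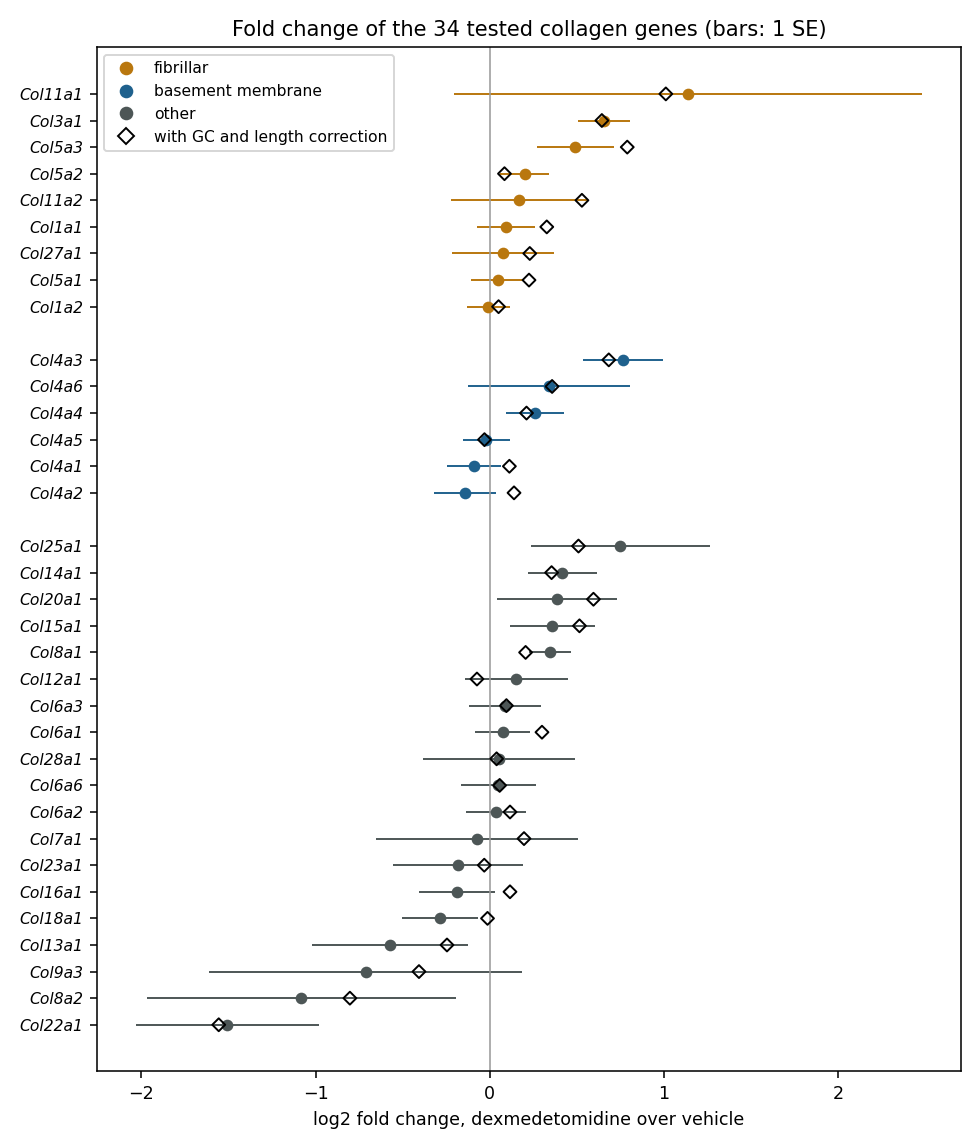
Log2 fold change (dexmedetomidine over vehicle) of the 34 tested collagen genes by class, as filled points with bars of 1 SE from edgeR, and the value after correction for GC content and length as open diamonds. Col3a1, Col4a3 and Col8a1 lie above 0 and Col22a1 lies below it by more than their bars. Other genes with an unadjusted p above 0.05, such as Col5a3 and Col14a1, also clear their bars. The values of the abundant Col4a1, Col4a2, Col1a1 and Col1a2 lie within 1 SE of 0.

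Among fibrillar collagens, 8 of 9 expressed genes had a positive log2 fold change (median 0.17, range -0.0089 to 1.14), beside 50.3% of all tested genes. Without dexmedetomidine replicate 1, Col1a1 and Col5a1 were negative (-0.12 and -0.078). With all libraries, 1 fibrillar gene had an unadjusted p under 0.05, beside 21.5% of all tested genes. That gene was Col3a1 (ENSMUSG00000026043), which codes for the homotrimeric type III collagen of fine, distensible fibres. It measured 23.0, 15.6 and 18.7 RPKM after dexmedetomidine, against 12.01, 12.5 and 11.9 RPKM after vehicle. All dexmedetomidine libraries lay above the vehicle libraries, which were close to each other. The log2 fold change was 0.65 (SE 0.15, edgeR adjusted p = 0.101, n = 3 each), with a DESeq2 adjusted p of 0.00605 and a limma-voom adjusted p of 0.0197, and over all 16 alternatives the adjusted p ran from 0.00605 to 0.371. In edgeR it was 0.0486 without vehicle replicate 3 and 0.0237 with no filter on low counts. The fold change lay between 0.49 and 0.78 with any 1 library left out, and was 0.64 with the correction for GC content and length (adjusted p = 0.294).

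Type I collagen, the stiff and most abundant fibre of the adult heart, had log2 fold changes near 0 in both chain genes. Col1a1 (ENSMUSG00000001506), its major chain, measured 14.9, 9.53 and 10.6 RPKM after dexmedetomidine, against 11.0, 11.7 and 10.2 RPKM after vehicle. Dexmedetomidine replicate 1 stood above the vehicle range and replicate 2 below it (log2 fold change 0.09, SE 0.17, adjusted p = 0.791). Col1a2 (ENSMUSG00000029661), its minor chain, measured 9.62, 8.65 and 9.03 RPKM after dexmedetomidine, against 8.86, 10.2 and 8.39 RPKM after vehicle (log2 fold change -0.0089, SE 0.12, adjusted p = 0.976). The groups overlapped for both chains. Corrected for GC content and length, the log2 fold change was 0.33 for Col1a1 and 0.05 for Col1a2, which changed its sign, and in limma-voom that of Col1a1 was -0.025.

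The ratio of Col1a1 to Col3a1 RPKM within a library, which does not depend on library size, was 0.648, 0.610 and 0.570 after dexmedetomidine, against 0.917, 0.935 and 0.856 after vehicle. The groups did not overlap, and the log2 difference was -0.57 (exact two-sided permutation p = 0.1, the smallest that 3 against 3 libraries can give, 0.4 adjusted over the 4 ratios tested). With any 1 library left out it ran from -0.61 to -0.52, and between the fold changes corrected for GC content and length it was smaller, at -0.32. The ratio of Col1a1 to Col1a2 averaged 1.28 ± 0.242 after dexmedetomidine and 1.20 ± 0.0524 after vehicle (exact permutation p = 0.9). The ratio of Col4a1 to Col4a2 averaged 1.72 ± 0.138 after dexmedetomidine and 1.64 ± 0.0451 after vehicle (exact permutation p = 0.5, with a log2 difference of 0.061 that was -0.027 after the same correction), and that of Col6a1 to Col6a2 2.29 ± 0.163 after dexmedetomidine and 2.20 ± 0.0686 after vehicle (exact permutation p = 0.4). These ratios of chains of the same molecule overlapped between the groups (SD, n = 3 each).

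**Figure D3:**
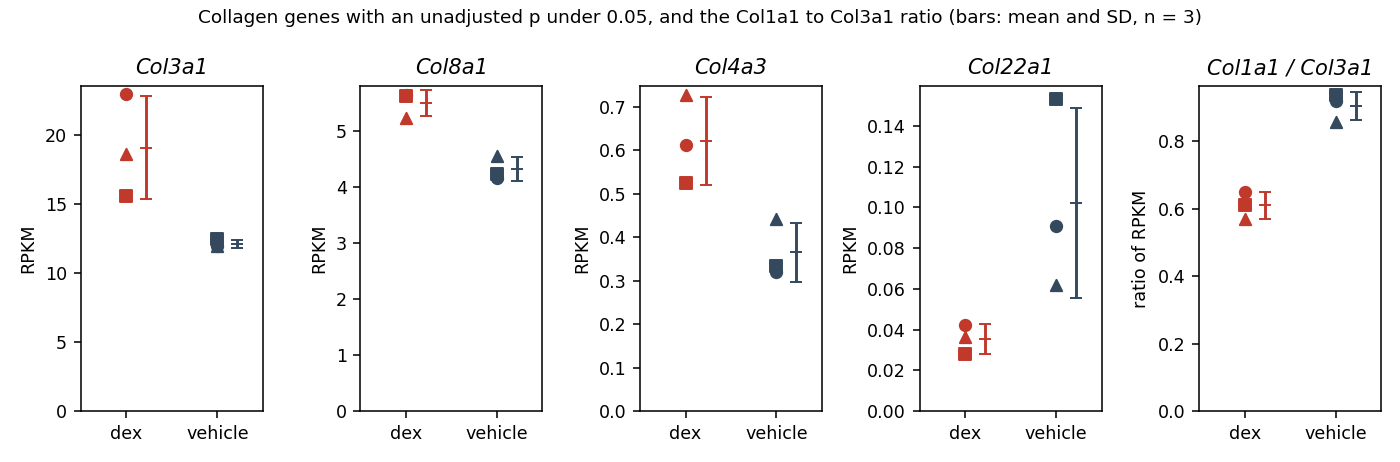
RPKM by library of the 4 collagen genes with an unadjusted edgeR p under 0.05, and the ratio of Col1a1 to Col3a1 RPKM, for dexmedetomidine (dex, left) and vehicle libraries, with circles, squares and triangles for replicates 1, 2 and 3 and bars for mean and SD (n = 3). No panel has overlap between the groups, and the ratio is 0.570 to 0.648 in the dexmedetomidine libraries and 0.856 to 0.935 in the vehicle libraries.

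Type V collagen sits inside type I fibrils and sets their diameter. Col5a1 measured 4.97, 3.64 and 4.24 RPKM after dexmedetomidine, against 4.01, 4.73 and 3.72 RPKM after vehicle (log2 fold change 0.05, SE 0.15). Col5a2 measured 4.35, 4.43 and 4.75 RPKM after dexmedetomidine, against 3.61, 4.66 and 3.51 RPKM after vehicle (log2 fold change 0.20, SE 0.14). Both overlapped between the groups. Col5a3 (ENSMUSG00000004098), the least abundant of the 3, measured 5.28, 2.73 and 3.88 RPKM after dexmedetomidine, against 2.53, 3.08 and 2.85 RPKM after vehicle. Its highest values came from dexmedetomidine replicates 1 and 3, while replicate 2 lay among the vehicle libraries (log2 fold change 0.49, SE 0.22, adjusted p = 0.234), and leaving out 1 library gave 0.23 to 0.70, the lowest without dexmedetomidine replicate 1. After correction for GC content and length Col5a3 was at 0.79 (adjusted p = 0.294). The low fibrillar genes Col11a1, Col11a2 and Col27a1 had log2 fold changes of 1.14 (SE 1.34), 0.17 (SE 0.39) and 0.08 (SE 0.29), all with SEs above the change itself.

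The fibrillar sum was 62.8, 44.999 and 51.8 RPKM after dexmedetomidine, against 42.6, 47.4 and 41.1 RPKM after vehicle, and dexmedetomidine replicate 2 lay inside the vehicle range. Without Col3a1 the sum was 39.8, 29.4 and 33.1 RPKM after dexmedetomidine, against 30.5, 34.9 and 29.2 RPKM after vehicle, which overlap more widely. As a share of summed collagen RPKM, fibrillar genes made up 17.9%, 17.8% and 17.9% after dexmedetomidine, against 14.8%, 13.8% and 15.8% after vehicle. Type IV genes made up 62.7%, 64.5% and 61.3% after dexmedetomidine, against 66.5%, 69.4% and 66.5% after vehicle. Neither share overlapped between the groups, and since shares of one total move against each other these are not separate results. The shares rest on deposited lengths and were not corrected for GC content. With the GC and length correction the log2 fold changes of Col4a1 and Col4a2 were positive (0.11 and 0.14), and the fibrillar median went from 0.17 to 0.33.

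**Figure D4:**
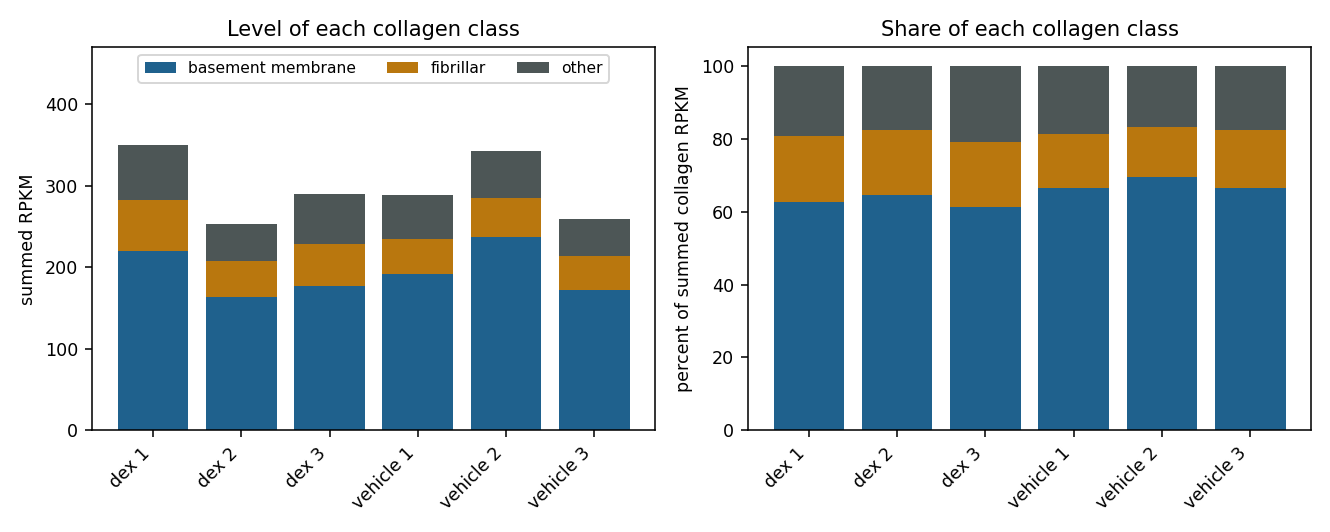
Summed RPKM (left) and share of summed collagen RPKM (right) of the basement membrane, fibrillar and other collagen genes in each library, with dexmedetomidine libraries (dex) first. Totals run from 253 to 350.1 RPKM with both groups across that range, and the fibrillar share is 17.8% to 17.9% after dexmedetomidine and 13.8% to 15.8% after vehicle.

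Of the 6 type IV genes, 3 had a positive and 3 a negative log2 fold change (median 0.12), beside 50.3% positive over all tested genes. An unadjusted p under 0.05 was found for 1, Col4a3, beside 21.5% of all tested genes. Col4a1 (ENSMUSG00000031502) had a log2 fold change of -0.09 (SE 0.15, adjusted p = 0.781) and Col4a2 (ENSMUSG00000031503) of -0.15 (SE 0.18, adjusted p = 0.675). Both signs turned with correction for GC content and length, to 0.11 for Col4a1 and 0.14 for Col4a2. The annotated first bases of these neighbours overlap on opposite strands, and without stated strand reads there cannot be assigned. Col4a5 (ENSMUSG00000031274), an X-linked chain gene, measured 4.35, 4.76 and 4.08 RPKM after dexmedetomidine, against 4.13, 5.04 and 4.21 RPKM after vehicle, with overlapping groups (log2 fold change -0.02, SE 0.13, and 0.049 in limma-voom).

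Col4a3 (ENSMUSG00000079465), a chain known from the basement membranes of kidney and lung, measured 0.613, 0.525 and 0.727 RPKM after dexmedetomidine, against 0.320, 0.334 and 0.442 RPKM after vehicle. Every dexmedetomidine library lay above every vehicle library, on counts of 204 to 314 after dexmedetomidine and 165 to 255 after vehicle. The log2 fold change was 0.77 (SE 0.23, edgeR adjusted p = 0.118), with an adjusted p of 0.0423 in DESeq2 and 0.0261 in limma-voom, and of 0.0474 in edgeR without vehicle replicate 3. Over its 15 alternatives the adjusted p ran from 0.0261 to 0.404, and the fold change from 0.64 to 0.93 with any 1 library left out. Corrected for GC content and length it was 0.68 (adjusted p = 0.294). Col4a4 (ENSMUSG00000067158), which is transcribed head to head with Col4a3 and joins it in the same molecule, measured 0.921, 1.11 and 1.04 RPKM after dexmedetomidine, against 0.823, 0.898 and 0.850 RPKM after vehicle. The groups did not overlap, by a narrow margin (log2 fold change 0.26, SE 0.17, adjusted p = 0.399). Col4a6, at 0.199 ± 0.0744 RPKM after dexmedetomidine and 0.158 ± 0.0784 after vehicle, had a log2 fold change of 0.34 (SE 0.47).

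Of the 19 expressed genes outside these classes, 11 had a positive log2 fold change (median 0.05), beside 50.3% of all tested genes. An unadjusted p under 0.05 was found for 2 of the 19, beside 21.5% of all tested genes. Col8a1 (ENSMUSG00000068196), a short-chain collagen made by vascular cells, measured 5.64, 5.63 and 5.25 RPKM after dexmedetomidine, against 4.17, 4.24 and 4.56 RPKM after vehicle. The groups were tight and did not overlap (log2 fold change 0.35, SE 0.12, edgeR adjusted p = 0.146). In limma-voom the adjusted p was 0.0430, the lowest over 16 alternatives that ran up to 0.561. Its transcript has a GC content of 46.8%, against a family median of 55.4%, and its corrected log2 fold change was 0.21. Col8a2, the gene of the partner chain, had 17, 0 and 15 counts after dexmedetomidine and 27, 34 and 23 after vehicle (log2 fold change -1.08, SE 0.89).

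Col22a1 (ENSMUSG00000079022), a FACIT collagen of the myotendinous junction that is also found in the heart, had 20, 10 and 13 counts after dexmedetomidine, against 49, 70 and 33 after vehicle. In RPKM this was 0.0423, 0.0279 and 0.0363 after dexmedetomidine, against 0.0909, 0.153 and 0.0620 after vehicle. All vehicle libraries were higher, vehicle replicate 2 most of all. The log2 fold change was -1.51 (SE 0.52, edgeR adjusted p = 0.146, 0.0886 in DESeq2 and 0.0761 in limma-voom), and -1.56 after that correction. It ranged from -1.76 to -1.10 with any 1 library left out, and no alternative brought the adjusted p below 0.0750.

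The chain genes of type VI collagen, which forms beaded microfilaments around cells, overlapped between the groups. Col6a1 measured 20.999, 15.3 and 19.2 RPKM after dexmedetomidine, against 18.0, 19.9 and 14.8 RPKM after vehicle (log2 fold change 0.07, SE 0.16, and -0.0046 in limma-voom). Col6a2 measured 9.82, 6.23 and 8.51 RPKM after dexmedetomidine, against 8.07, 8.91 and 7.01 RPKM after vehicle (log2 fold change 0.03, SE 0.17, and -0.070 in limma-voom). In both, dexmedetomidine replicate 2 was below its own group. Col6a3 had a log2 fold change of 0.09 (SE 0.21) and Col6a6 of 0.05 (SE 0.21). Their summed level was 36.2, 24.8 and 32.5 RPKM after dexmedetomidine, against 30.6, 33.1 and 25.7 RPKM after vehicle. Col15a1 (ENSMUSG00000028339), a basement membrane zone collagen of heart and skeletal muscle capillaries, measured 17.9, 8.76 and 14.9 RPKM after dexmedetomidine, against 11.9, 11.6 and 8.89 RPKM after vehicle. The dexmedetomidine libraries held both the highest and the lowest value (log2 fold change 0.36, SE 0.25, adjusted p = 0.437), and the change was 0.13 without dexmedetomidine replicate 1, 0.60 without dexmedetomidine replicate 2 and 0.11 in limma-voom. Its relative Col18a1 (ENSMUSG00000001435), the precursor of endostatin, measured 2.79, 1.60 and 2.14 RPKM after dexmedetomidine, against 2.75, 3.09 and 2.14 RPKM after vehicle (log2 fold change -0.29, SE 0.22, adjusted p = 0.483). Leaving out 1 library gave -0.51 to -0.11 for Col18a1, and the GC and length correction brought it to -0.013.

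Among the remaining FACIT genes, Col14a1 (ENSMUSG00000022371), which binds type I fibrils, measured 1.76, 1.28 and 2.02 RPKM after dexmedetomidine, against 1.44, 1.20 and 1.16 RPKM after vehicle. The groups overlapped through a single vehicle library (log2 fold change 0.42, SE 0.20, adjusted p = 0.255, and 0.27 to 0.58 with 1 library left out). Col16a1 measured 1.48, 1.07 and 0.974 RPKM after dexmedetomidine, against 1.13, 1.65 and 1.25 RPKM after vehicle (log2 fold change -0.19, SE 0.22, and 0.12 after the GC and length correction). Its groups overlapped. Col12a1 had a log2 fold change of 0.15 (SE 0.29), Col20a1 of 0.38 (SE 0.34) and Col9a3 of -0.71 (SE 0.90). Col13a1, a membrane-spanning collagen, measured 0.160, 0.161 and 0.212 RPKM after dexmedetomidine, against 0.185, 0.415 and 0.195 RPKM after vehicle, where replicate 2 stood high (log2 fold change -0.57, SE 0.45, and -0.78 to -0.099 with 1 library left out). The membrane-spanning Col23a1 and Col25a1 stood at -0.18 (SE 0.37) and 0.75 (SE 0.51), and the anchoring fibril gene Col7a1 and Col28a1 at -0.07 (SE 0.58) and 0.05 (SE 0.44). None of the genes in this paragraph had an unadjusted p under 0.05.

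Glycine and proline, the main residues of collagen, have codons rich in G and C. The longest transcripts of the 34 expressed genes had a median GC content of 55.4% (range 45.9% to 62.9%), against 49.8% over all tested genes. In the fifth of all tested genes with the highest GC content (55.5% to 74.8%) the median log2 fold change was -0.30, and in the fifth with the lowest (29.6% to 44.0%) it was 0.47. Col3a1 (52.5% GC) and Col4a3 (50.4%) lay in the bins with medians of -0.15 and -0.01. When the trend of each library with GC content and length was removed, the median of the 34 collagen genes was 0.17, with 26 above 0, beside 45.8% of all genes and a median of -0.03 over them. Then 6 members had an unadjusted p under 0.05, beside 12.6% of all genes, namely Col3a1, Col4a3, Col5a3, Col1a1, Col15a1 and Col22a1, and none had an adjusted p under 0.294.

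**Figure D5:**
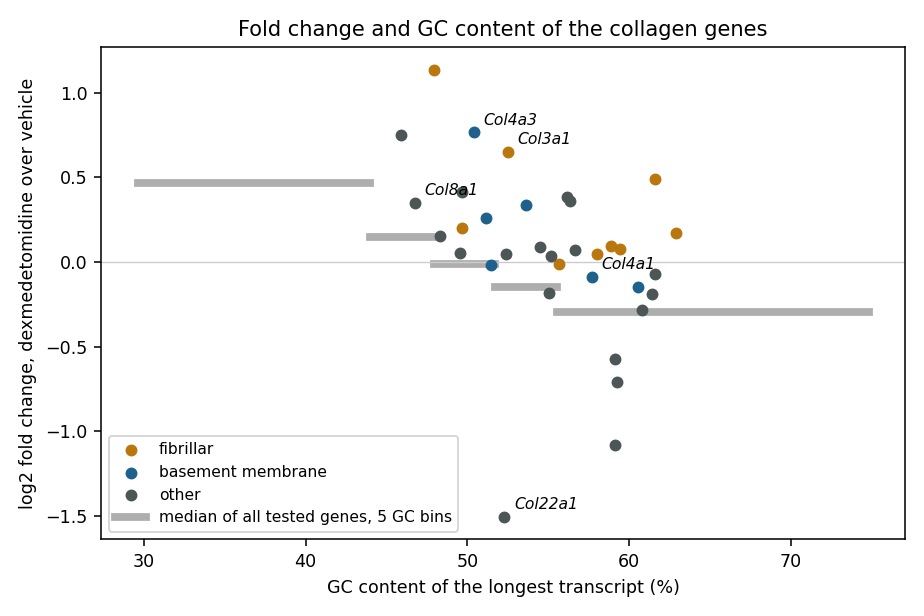
Log2 fold change (dexmedetomidine over vehicle) of the 34 tested collagen genes against the GC content of their longest transcript, coloured by class, with grey bars for the median of all tested genes in 5 equal bins of GC content. The bars step down from 0.47 to -0.30, and Col3a1 and Col4a3 lie above the bars of their bins, with Col22a1 far below its own.

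Genes that make, bind or break down collagen were counted beside the chain genes. Of 29 listed genes of collagen synthesis and processing, 27 were tested, 11 with a positive and 16 with a negative log2 fold change (median -0.07). None passed in edgeR, 1 had an unadjusted p under 0.05 with a higher and 2 with a lower level, and DESeq2 called 2, limma-voom 3. Over all genes the shares were 12.5% higher and 9.03% lower at an unadjusted p under 0.05, 8.54% in DESeq2 and 14% in limma-voom. Plod2 (ENSMUSG00000032374), a lysyl hydroxylase that modifies collagen ends for cross-linking, measured 9.22, 11.0 and 9.30 RPKM after dexmedetomidine, against 5.64, 5.77 and 6.73 RPKM after vehicle. The groups were well apart (log2 fold change 0.70, SE 0.13, edgeR adjusted p = 0.101, DESeq2 0.00217), and the corrected change was 0.30. P3h4, a component of a collagen prolyl and lysyl hydroxylation complex, was at -0.59 (SE 0.13, edgeR adjusted p = 0.101, DESeq2 0.00643), with a corrected value of -0.26. The collagen chaperone gene Fkbp10 was at -0.45 (SE 0.15) and P4hb, a subunit of prolyl 4-hydroxylase, at -0.28 (SE 0.13).

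Of 13 other basement membrane genes, all tested, 5 had a positive and 8 a negative log2 fold change (median -0.10), and 3 had an unadjusted p under 0.05, all lower, beside 9.03% of all genes lower at that p, 21.5% in either direction and 50.3% with a positive value. These were the laminin chain genes Lamb2 (-0.48, SE 0.14) and Lama5 (-0.36, SE 0.13) and the perlecan gene Hspg2 (-0.34, SE 0.13), with edgeR adjusted p of 0.112, 0.167 and 0.168. Corrected, Lamb2 was at -0.21, Lama5 at -0.14 and Hspg2 at -0.13. Lamb2 measured 50.4, 43.6 and 39.1 RPKM after dexmedetomidine, against 56.0, 67.8 and 61.3 RPKM after vehicle, and was called by DESeq2 (adjusted p = 0.0325).

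Of 16 genes for collagen receptors and turnover, 15 were tested, 12 with a positive and 3 with a negative log2 fold change (median 0.43). None passed in edgeR, 3 had an unadjusted p under 0.05 with a higher and 1 with a lower level, and DESeq2 and limma-voom called 3 each. Beside these stand 50.3% positive, 12.5% higher and 9.03% lower at an unadjusted p under 0.05, 8.54% called in DESeq2 and 14% in limma-voom over all genes. Itga1 (ENSMUSG00000042284), the alpha chain of a receptor for type IV and type I collagen, measured 6.55, 5.40 and 6.93 RPKM after dexmedetomidine, against 4.05, 3.25 and 4.25 RPKM after vehicle (log2 fold change 0.71, SE 0.15, edgeR adjusted p = 0.101, DESeq2 0.00396). Both discoidin domain receptor genes, whose products are tyrosine kinases activated by collagen, had separate groups in opposite directions. Ddr2, the receptor of mesenchymal cells, was at 0.48 (SE 0.18, adjusted p = 0.164) and Ddr1, mainly of epithelial cells, at -0.62 (SE 0.14, adjusted p = 0.101, DESeq2 0.00778). Corrected values were smaller, with Itga1 at 0.21, Ddr2 at 0.17 and Ddr1 at -0.29. Fap, which codes for a protease of activated fibroblasts, had a log2 fold change of 0.92 (SE 0.26), and 0.15 when corrected.

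Markers of the cells that make collagen were measured beside these genes. The 10 fibroblast markers, of which Pcolce is also in the synthesis list, were all detected. Their summed level was 2363 to 2596 CPM after dexmedetomidine and 2487 to 2667 CPM after vehicle, with 5 of 10 above 0 in log2 fold change. The sum mostly follows Gsn, at 1354 to 1442 CPM after dexmedetomidine and 1571 to 1798 CPM after vehicle (log2 fold change -0.25, SE 0.11). Dcn, the next highest, went the other way (0.42, SE 0.16). It measured 573, 851 and 785 CPM after dexmedetomidine, against 600, 497 and 555 CPM after vehicle. The summed level of 10 mural cell markers was 1753 to 2003 CPM after dexmedetomidine and 1404 to 1548 CPM after vehicle, with no overlap, but 3 of 10 had a positive log2 fold change, and the pericyte genes Rgs5 (0.66, SE 0.14) and Abcc9 (0.34, SE 0.14) carried the sum. The 10 endothelial markers summed to 1441 to 1521 CPM after dexmedetomidine and 1459 to 1587 CPM after vehicle. The cardiomyocyte sum was lower after dexmedetomidine without overlap, as given above. Of its 10 markers, Myh6 had the highest level (log2 fold change -0.47, SE 0.14), and 1, Ttn, had a positive value (0.29, SE 0.20). Of the other lists, Schwann, epicardial, cartilage or valve, macrophage and adipocyte markers overlapped between the groups in their sums, and Matn3, a cartilage gene, was at 0 in each library. The part of the mural and cardiomyocyte differences, of depth and of the mitochondrial share in the collagen values was not tested. A fit without mitochondrially encoded genes gave log2 fold changes of 0.63 for Col3a1 and 0.75 for Col4a3. In that fit 22 expressed collagen genes were above 0, with a median of 0.056.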

How the data were processed

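Messenger RNA of 6 apical heart samples was sequenced from 1 µg of RNA each, selected on poly-T beads with an NEBNext Ultra kit, per the labels' protocols. The authors deposited raw read counts for each gene and library, beside gene lengths. Trim Galore, HTSeq and build mm9 were used, per the submitters' processing notes. Aligner, versions, annotation, strand setting and the definition of length: not given in the sources used here. The table had 37620 genes, 32897 with a symbol in GENCODE M21, and 5 summary rows that were left out. Shares are of all counts with these rows included. Alignments at several places made up 31.2% to 39.5% after dexmedetomidine and 28.0% to 31.4% after vehicle. In all libraries 2.33% to 3.63% were outside genes and 1.83% to 2.37% were ambiguous.

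Counts were tested with edgeR 4.0.16 in R 4.3.3 (quasi-likelihood test, robust fit, filterByExpr, TMM, Benjamini-Hochberg over all 14738 tested genes), dexmedetomidine minus vehicle. SEs come from the F statistic. The common biological coefficient of variation was 22.8%. Alternatives are listed in the closing section, with DESeq2 1.42.0 and limma 3.58.1 among them. The fits were also run on simulated counts that held no trend with GC content or length. Such counts cannot show how the fits behave on data with that trend. The GC and length correction removed each library's spline trend on GC content of the longest transcript and deposited length. Each pair of libraries differed beyond counting noise (chi-square per degree of freedom 29.0 to 446). Levels per longest GENCODE M21 transcript, whose build (GRCm38) is not that of the counts, were added after seeing the data. The labels do not say that samples came from separate animals, so p-values measure the spread between samples, which may be technical. Members, gene lists and tests were chosen with earlier results of these data known. Values by library are given for the 12 most abundant members, the 6 of smallest edgeR p per direction and those called by any tool, and up to 4 genes of each other list were named. Exact two-sided permutation tests served for chain ratios.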

Additional observations from a re-analysis of the deposited data

How the results depend on the processing

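Run across all genes were 16 alternatives: DESeq2, limma-voom with quality weights, size factors of DESeq2, no filter, the replicate block, a filter of 10 counts in 3 libraries or on mean CPM (5 or more), the GC and length correction without and with that block, leaving out mitochondrially encoded genes, and leaving out each of the 6 libraries. Over all genes, edgeR called 0 at an adjusted p of 0.05 (3172 at an unadjusted p under 0.05). It called 406 with no filter (1.88% of the genes tested in that run), 636 with the replicate block (4.32%) and 152 with the GC and length correction and the replicate block. With 1 library left out it called 0 to 1251 (7 without dexmedetomidine replicate 1, 5 without dexmedetomidine replicate 2 and 1251, or 8.31%, without vehicle replicate 3). DESeq2 called 1201 (8.54%) and limma-voom 2063 (14%). These shares stand beside the counts of called members that follow. In the main fit 34 collagen, 27 synthesis, 13 other basement membrane and 15 receptor and turnover genes were tested. Of the collagen genes, 0 were called, but 1 with no filter, 2 in DESeq2, 3 in limma-voom and 0 to 2 with 1 library left out, the 2 being without vehicle replicate 3. Members with an unadjusted p under 0.05 numbered 4, but 2 of 19 tested at a mean CPM of at least 5 (27.1% of all genes), 8 in limma-voom (31.9% of all genes) and 3 to 5 with 1 library left out. Those above 0 numbered 22, but 14 of 19 tested at a mean CPM of at least 5 (50% of all genes), and 16 to 27 with 1 library left out (16 without dexmedetomidine replicate 1, 27 without vehicle replicate 2), while their median ran from -0.0098 to 0.18. Synthesis genes called were 2 with no filter, 1 with the replicate block, 2 in DESeq2, 3 in limma-voom and 0 to 2 with 1 library left out; other basement membrane genes 1 in DESeq2 and 2 in limma-voom; receptor and turnover genes 2 with no filter, 1 with the replicate block, 3 in DESeq2, 3 in limma-voom and 0 to 2 with 1 library left out. The replicate block called 0 collagen genes, and same-numbered libraries share only a number (their deviations from the group means correlated at -0.055, 0.036 and 0.15).

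Of 21 named collagen genes, 12 kept their sign under each alternative run. The log2 fold change changed sign with the GC and length correction, without and with the replicate block, for Col4a1 (0.11, 0.12), Col4a2 (0.14, 0.15), Col1a2 (0.050, 0.062) and Col16a1 (0.12, 0.13). It changed sign in limma-voom for Col6a1 (-0.0046), Col1a1 (-0.025), Col6a2 (-0.070) and Col4a5 (0.049), and for Col1a2 at a mean CPM of at least 5 (0.011). With 1 library left out, it ran from -0.20 to 0.041 for Col4a1, from -0.33 to 0.012 for Col4a2, from -0.034 to 0.19 for Col6a1, from -0.12 to 0.22 for Col1a1, from -0.067 to 0.076 for Col1a2, from -0.12 to 0.20 for Col6a2, from -0.083 to 0.075 for Col4a5 and from -0.078 to 0.15 for Col5a1. The log2 difference of the Col1a1 to Col1a2 ratio ran from -0.077 to 0.17, and was negative only without dexmedetomidine replicate 1. That of the Col4a1 to Col4a2 ratio was -0.027 with the GC and length correction, an alternative for ratios chosen after seeing the data. The cause of these changes was not tested. The number of expressed members was 31 to 39 with a minimum of 20 to 1 counts. Values of genes with few counts, such as Col22a1, Col8a2 and Col11a1, are limited by depth.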
